A study of Mus musculus with 14 samples.

Results

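Macrophage, monocyte and neutrophil genes were followed across the triceps muscle of FLExDUX4 and WT mice. The list held 33 genes of the 52550 in the count table, chosen by symbol as genes known to be made by these cells. All 33 symbols were found, and 27 had enough reads for a test of differential expression. Mpeg1, Aif1, Cx3cr1, Trem2, Gpnmb and Spp1 had too few reads and are described by their counts.

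The 14 animals were male FLExDUX4 mice and WT littermates. FLExDUX4 mice carry an inverted human DUX4 transgene made for activation by Cre recombinase, with known low expression in its absence, and model facioscapulohumeral muscular dystrophy. The labels name no Cre driver and give no age. Runners (4 FLExDUX4 and 4 WT mice) had voluntary access to a wheel for 6 weeks, and controls (3 FLExDUX4 and 3 WT mice) had none. Libraries were made from total RNA of whole muscle with a kit that reads the 3′ end of each transcript. The study asked what aerobic exercise does to the muscle of this model. DUX4 itself was not analysed here.

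The shallowest library, WT control 3, had 3269357 gene counts and the deepest, FLExDUX4 control 3, had 6995811. Levels are given as CPM, counts relative to the scaled library size. Before scaling, 1 unit stood for 3.269 to 6.996 reads, and scaling multiplied the library sizes by 0.911 to 1.114. Levels of the members were low, and the 6 untested members averaged under 6 reads a mouse. With whole-muscle RNA, fewer cells of a type and less RNA per cell cannot be told apart.

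Skeletal muscle at rest holds macrophages in the connective tissue around fibres and vessels. Many of these resident cells carry the scavenger receptors CD163 and CD206 and the hyaluronan receptor LYVE1, and they clear debris. After injury, CCR2-positive monocytes enter from the blood together with neutrophils, and they turn into phagocytic macrophages that clear dead fibres and later feed repair. In dystrophic muscle this infiltrate is persistent, and macrophage genes are therefore widely used as a readout of muscle damage.

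Transcription of most myeloid genes depends on PU.1, an ETS-family factor encoded by Spi1, whose core binding motif is the PU box, GAGGAA. The stretch of 250 bases before the annotated start is shown for 4 members, to set 3 genes of macrophages (C1qb, Cd68 and Ctss) beside a gene of neutrophils (S100a9). The windows of C1qc and S100a8, whose values are given mouse by mouse, overlap annotated exons and are not shown. Capitals mark each PU box on either strand. The sequences are from RefSeq on GRCm38.p6, in the direction of transcription, and none of these windows touches an annotated exon. They lie at chr4:136886201-136886450 on the minus strand for C1qb, at chr11:69666171-69666420 on the minus strand for Cd68, at chr3:95526536-95526785 on the plus strand for Ctss and at chr3:90695722-90695971 on the minus strand for S100a9.
C1qb: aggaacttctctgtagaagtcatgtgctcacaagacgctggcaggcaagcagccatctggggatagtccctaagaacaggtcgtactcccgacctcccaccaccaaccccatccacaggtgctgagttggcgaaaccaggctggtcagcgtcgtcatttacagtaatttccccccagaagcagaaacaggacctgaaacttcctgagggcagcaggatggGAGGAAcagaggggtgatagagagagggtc
Cd68: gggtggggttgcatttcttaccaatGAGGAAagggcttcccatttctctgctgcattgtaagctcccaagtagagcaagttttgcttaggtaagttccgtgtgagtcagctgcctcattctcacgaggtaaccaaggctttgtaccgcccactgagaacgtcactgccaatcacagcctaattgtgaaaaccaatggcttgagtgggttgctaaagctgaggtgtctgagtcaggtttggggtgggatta
Ctss: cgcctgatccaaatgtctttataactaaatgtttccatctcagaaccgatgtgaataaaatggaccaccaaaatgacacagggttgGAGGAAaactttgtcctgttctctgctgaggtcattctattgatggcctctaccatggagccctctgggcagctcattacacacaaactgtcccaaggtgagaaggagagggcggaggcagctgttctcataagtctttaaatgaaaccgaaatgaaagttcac
S100a9: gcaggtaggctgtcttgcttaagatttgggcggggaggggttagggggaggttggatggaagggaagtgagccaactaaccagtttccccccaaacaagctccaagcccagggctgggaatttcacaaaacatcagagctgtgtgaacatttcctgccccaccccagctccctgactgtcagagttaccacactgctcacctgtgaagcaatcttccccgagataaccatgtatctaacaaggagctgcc

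C1qb, Cd68 and Ctss each held 1 PU box on the coding strand, and S100a9 held none. Its first base lay at position -30 in C1qb, at -225 in Cd68 and at -164 in Ctss, counted back from the RefSeq start. The GENCODE genes of C1qb and Cd68 start further downstream, at 136886187 and 69666153. Of the 26 members with a window in the table, 14 (53.8%) held the motif on either strand, against 25.9% of the 27025 genes with a window. S100a8, the other neutrophil member, held the motif, while Lyz2, Mpeg1, Cd163 and Folr2 were among the members without it. The sequences shown are therefore no contrast between macrophage and neutrophil genes. A match of 6 letters is a description of the sequence and does not mark a bound site. Spi1 itself had a mean of 2.18 CPM ± 1.02 (SD) among WT controls (n = 3) and 0.622 ± 0.562 (n = 3) in FLExDUX4 controls. Its means were 1.57 ± 0.691 (n = 4) in WT runners and 1.62 ± 0.335 (n = 4) in FLExDUX4 runners. Spi1 was tested and not called in any of the 7 comparisons, and was named after its values were seen. Its level in FLExDUX4 controls was near the floor, where 3 counts are 0.429 to 0.760 CPM per library before scaling.

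The 3 C1q chains form the recognition protein of the classical complement pathway, which tissue macrophages make. They are adjacent genes on chromosome 4: C1qb at 136880129 to 136886187, C1qc at 136889804 to 136893065 and C1qa at 136895917 to 136898803, all on the minus strand of GRCm38. C1qa had a mean of 8.19 CPM ± 4.95 among WT controls (n = 3) and 9.49 ± 6.62 (n = 3) in FLExDUX4 controls, against 9.99 ± 4.62 (n = 4) in WT runners and 8.35 ± 1.83 (n = 4) in FLExDUX4 runners. C1qb averaged 7.49 ± 1.98, 5.96 ± 2.97, 7.52 ± 3.74 and 7.96 ± 1.57 CPM in the same order. For both genes every pair of groups overlapped.

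C1qc read 18.04, 10.6 and 6.00 CPM in WT control mice 1 to 3 and 9.58, 10.2 and 4.62 in FLExDUX4 control mice 1 to 3. It read 8.89, 7.80, 16.4 and 17.5 CPM in WT runners 1 to 4 and 11.8, 18.3, 12.3 and 10.4 in FLExDUX4 runners 1 to 4. All 4 FLExDUX4 runners lay above all 3 FLExDUX4 controls, by a narrow gap of 10.2 to 10.4, while the WT groups overlapped. The log2 difference with running in FLExDUX4 mice was 0.72 ± 0.37 (SE), with a 95% interval from -0.03 to 1.47, and did not pass (edgeR adjusted p = 0.763). Without FLExDUX4 control 3, the lowest mouse, it was 0.40.

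Among the genes of macrophage identity and the lysosome, Cd68 and Ctss were lower in FLExDUX4 controls than in WT controls in these samples, without passing the test. All 5 tested genes of this role had a log2 difference below 0 there (5516 of all 11088 genes). Their median was -0.58, and they ran from -1.44 for Cd68 to -0.14 for Lyz2. Cd68 encodes a glycoprotein of macrophage lysosomes. It read 1.89, 3.88 and 2.40 CPM in WT controls 1 to 3, and 1.10, 0.995 and 0.898 in FLExDUX4 controls 1 to 3. Runners read 0.198, 1.42, 1.62 and 0.883 CPM in WT mice 1 to 4 and 2.33, 2.15, 0.599 and 1.85 in FLExDUX4 mice 1 to 4. The 3 WT controls thus lay above every FLExDUX4 control and every WT runner, and overlapped with FLExDUX4 runners.

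These Cd68 levels rest on 1 to 18 reads per mouse. The log2 difference between genotypes in controls was -1.44 ± 0.93 (interval -3.32 to 0.43, edgeR adjusted p = 0.972). With running in WT mice it was -1.38 ± 0.84 (interval -3.08 to 0.32, edgeR adjusted p = 0.604), and these 2 comparisons share the WT controls. In FLExDUX4 mice the running difference was 0.81 ± 0.88, and between genotypes in runners it was 0.75 ± 0.80. The difference of the 2 running effects was 2.20 ± 1.22 (interval -0.28 to 4.67, edgeR adjusted p = 0.955), so opposite responses of the genotypes were not shown.

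Ctss, cathepsin S, a protease of the antigen-processing compartment, read 13.4, 10.1 and 6.90 CPM in WT controls 1 to 3 and 3.83, 9.20 and 2.18 in FLExDUX4 controls 1 to 3. Runners read 5.92, 6.56, 12.2 and 7.06 CPM in WT mice 1 to 4 and 6.40, 13.7, 5.39 and 7.82 in FLExDUX4 mice 1 to 4. FLExDUX4 control 2 sat within the WT range, and the groups overlapped. The genotype difference in controls was -1.06 ± 0.46 (interval -1.98 to -0.13) with an unadjusted p of 0.026 and an edgeR adjusted p of 0.968. It was -1.82 without FLExDUX4 control 2 and -0.64 without FLExDUX4 control 3. In runners the genotype difference was 0.07 ± 0.38 (interval -0.70 to 0.84).

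Lyz2, lysozyme 2 of macrophages and neutrophils, had the most reads of any member, 71 to 313 per mouse. It averaged 38.9 CPM ± 21.4 in WT controls and 35.9 ± 8.62 in FLExDUX4 controls, against 48.2 ± 13.4 in WT runners and 37.4 ± 10.5 in FLExDUX4 runners. The log2 difference between genotypes was -0.14 (interval -0.94 to 0.67) in controls and -0.37 (-1.05 to 0.32) in runners. Lyz1, a close paralog with 3 to 32 reads per mouse, can share reads with Lyz2, since the handling of reads with several alignments is not given.

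Csf1r, the receptor for the growth factor on which macrophages depend, averaged 10.8 ± 5.80, 7.31 ± 1.44, 8.98 ± 3.87 and 10.1 ± 1.80 CPM in the same order of groups as for Lyz2. Adgre1, which encodes the F4/80 antigen, averaged 2.95 ± 0.353, 2.57 ± 1.97, 3.12 ± 3.13 and 2.57 ± 0.945 CPM in that order. Groups overlapped for both, and neither passed the test. Mpeg1, a pore-forming protein of phagosomes, and Aif1, the calcium-binding protein IBA1, had 0 to 10 and 0 to 13 reads per mouse and were not tested.

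**Figure D1:**
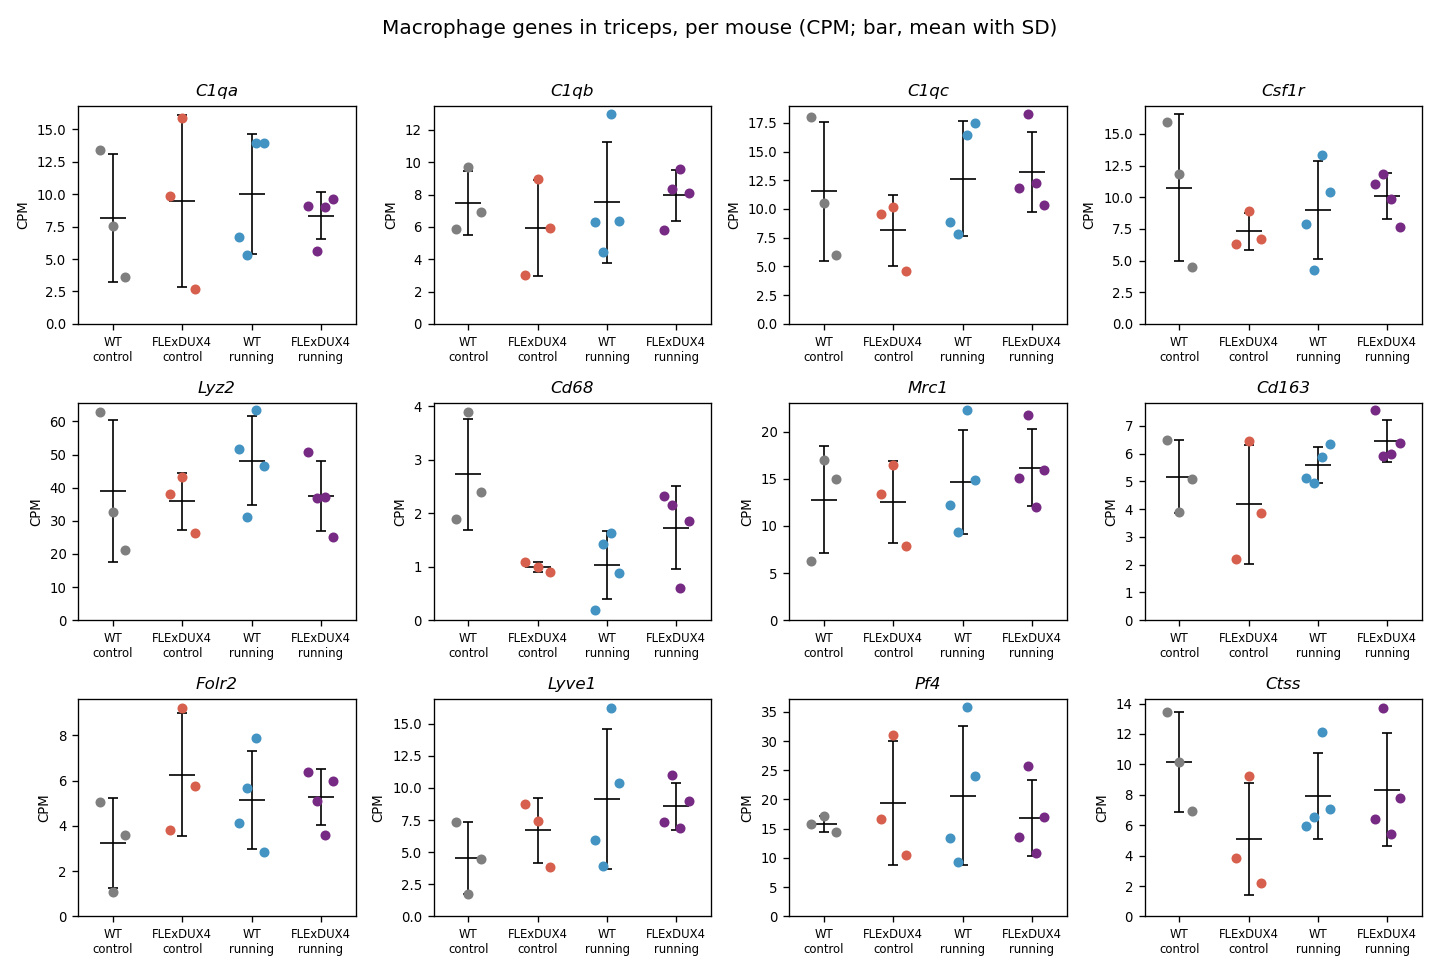
Levels of 12 macrophage members in each mouse. Each panel shows CPM on a linear axis from 0, 1 point per mouse, with the group mean and SD as a bar; groups are WT controls and FLExDUX4 controls (3 mice each) and WT runners and FLExDUX4 runners (4 mice each). Pairwise groups overlap in all panels but C1qc and Cd68. Cd68 in WT controls (1.89 to 3.88 CPM) lies above FLExDUX4 controls (0.898 to 1.10 CPM).

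Averaged over genotype, all 5 tested resident macrophage genes had a running difference above 0 (51.5% of all genes), and none passed the test. Pf4 (0.09 ± 0.31) and Folr2 (0.21 ± 0.34) were closest to 0. WT running 3 was the highest mouse for Mrc1, Lyve1 and Pf4. In FLExDUX4 mice alone 3 of the 5 were above 0, with Folr2 at -0.24 ± 0.47 and Pf4 at -0.19 ± 0.44. Mrc1, the mannose receptor CD206, averaged 12.8 CPM ± 5.70 in WT controls and 12.6 ± 4.36 in FLExDUX4 controls, against 14.7 ± 5.53 in WT runners and 16.2 ± 4.07 in FLExDUX4 runners. Cd163, the receptor for haemoglobin bound to haptoglobin, averaged 5.16 ± 1.31, 4.17 ± 2.16, 5.58 ± 0.651 and 6.47 ± 0.762 CPM in that order. Averaged over genotype, running differences were 0.30 ± 0.23 (interval -0.18 to 0.77) for Mrc1 and 0.37 ± 0.30 (interval -0.23 to 0.98) for Cd163. Red blood cell genes stood beside them, with a summed level of 440 to 952 CPM in WT controls and 670 to 988 in FLExDUX4 controls, against 1133 to 1836 in WT runners and 476 to 1738 in FLExDUX4 runners. The part of blood content in these values was not tested.

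Lyve1 read 7.34, 1.72 and 4.502 CPM in WT controls 1 to 3 and 8.76, 7.46 and 3.85 in FLExDUX4 controls 1 to 3. It read 5.92, 3.90, 16.2 and 10.4 CPM in WT runners 1 to 4 and 7.37, 11.01, 6.89 and 8.96 in FLExDUX4 runners 1 to 4. WT running 3 was the highest mouse and WT control 2 the lowest, and the groups overlapped within each genotype. The running difference was 1.00 ± 0.46 (interval 0.07 to 1.93) in WT mice, with an unadjusted p of 0.0366 and an edgeR adjusted p of 0.42. Averaged over genotype it was 0.69 ± 0.32 (edgeR adjusted p = 0.366). Without WT running 3 the WT difference was 0.57, and without WT control 1 it was 1.58.

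Lyve1 is also made by lymphatic endothelium. The summed level of 6 other lymphatic markers, led by Pdpn, ran from 6.90 to 10.5 CPM in WT controls and 15.4 to 24.6 in FLExDUX4 controls, against 12.5 to 14.6 in WT runners and 10.7 to 16.1 in FLExDUX4 runners. All 3 FLExDUX4 controls and all runners of both genotypes thus lay above the WT controls for these markers. Their part in the Lyve1 values was not tested.

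Folr2, a folate receptor of resident macrophages, read 5.04, 1.08 and 3.602 CPM in WT controls and 3.83, 9.20 and 5.78 in FLExDUX4 controls. It read 4.15, 5.67, 7.90 and 2.83 CPM in WT runners and 6.40, 5.10, 3.596 and 5.97 in FLExDUX4 runners. FLExDUX4 controls averaged higher than WT controls with overlap, at a log2 difference of 0.95 ± 0.53 (interval -0.12 to 2.02, edgeR adjusted p = 0.972). It was 0.53 without WT control 2 and 1.47 without WT control 1. In runners the genotype difference was 0.05 ± 0.44. Pf4, a chemokine of platelets that resident macrophages also make, averaged 15.8 ± 1.42, 19.4 ± 10.6, 20.7 ± 11.9 and 16.8 ± 6.51 CPM in WT controls, FLExDUX4 controls, WT runners and FLExDUX4 runners, with overlap throughout. Cx3cr1, the fractalkine receptor, had 18 reads in all, 7 of them in FLExDUX4 running 1, and 0 in 7 mice.

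None of the 5 monocyte and inflammatory members passed the test. Ccr2, the receptor through which monocytes enter tissue, averaged 2.63 CPM ± 1.29 in WT controls and 3.69 ± 1.74 in FLExDUX4 controls, against 4.29 ± 1.53 in WT runners and 4.58 ± 2.19 in FLExDUX4 runners. The running difference averaged over genotype was 0.50 ± 0.39 (interval -0.28 to 1.28). The genotype difference was 0.47 (interval -0.74 to 1.67) in controls and 0.09 (-0.90 to 1.08) in runners.

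Itgam, the integrin chain CD11b, read 2.52, 1.51 and 2.10 CPM in WT controls and 0.547, 0.746 and 0.770 in FLExDUX4 controls. It read 0.987, 2.48, 2.63 and 2.12 CPM in WT runners and 0.194, 4.03, 0.899 and 1.56 in FLExDUX4 runners. All 3 FLExDUX4 controls lay below all 3 WT controls, while FLExDUX4 runners held both the lowest and the highest mouse. These values came from 1 to 15 reads per mouse, and the difference in controls was -1.52 ± 0.98 (interval -3.50 to 0.47, edgeR adjusted p = 0.972).

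Cd14, the co-receptor for bacterial lipopolysaccharide, read 2.19, 2.49 and 2.31 CPM in FLExDUX4 controls and 1.94, 1.34, 2.10 and 0.853 in FLExDUX4 runners, which all lay below the controls. In WT mice it read 3.36, 0.647 and 1.50 CPM in controls and 1.38, 0, 2.23 and 2.47 in runners, which overlapped. The running difference in FLExDUX4 mice was -0.59 ± 0.87 (interval -2.36 to 1.17). Ccl6 and Ccl9, neighbouring chemokine genes on chromosome 11 that macrophages and other myeloid cells make, varied widely between mice. Ccl6 ran from 6.12 CPM in WT running 1 to 30.99 in WT running 3.

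Ccl9 ran from 0.987 CPM in WT running 1 to 11.2 in FLExDUX4 control 2. Its running differences were 0.72 ± 0.62 in WT mice and -0.97 ± 0.61 in FLExDUX4 mice. The difference of these effects was -1.68 ± 0.87 (interval -3.45 to 0.08, edgeR adjusted p = 0.955). It was -0.64 without FLExDUX4 control 2, which held 45 Ccl9 reads against 5 and 28 in the others of its group.

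Of the 4 members that mark macrophages at sites of injury, Trem2, Gpnmb and Spp1 had too few reads for a test. Trem2, a lipid-sensing receptor of phagocytic macrophages, had 0 reads in all 6 controls. It had 3, 0, 2 and 13 reads in WT runners 1 to 4 and 5, 0, 0 and 0 in FLExDUX4 runners 1 to 4. A count of 0 allows up to 0.243 CPM over the WT controls together and 0.2 CPM over the FLExDUX4 controls. These floors are 3 counts of the group's unscaled total and cover counting error only. Over the group, WT runners had 18 reads, 13 of them in WT running 4, and FLExDUX4 runners had 5.

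Spp1, osteopontin, had 10 of its 22 reads in WT control 3. Gpnmb, a glycoprotein of lipid-laden macrophages, had 0 to 11 reads per mouse. Lgals3, galectin-3, was the tested gene of this role. It read 5.46, 1.29 and 2.70 CPM in WT controls, 7.39, 7.71 and 1.41 in FLExDUX4 controls, 1.58, 3.37, 1.82 and 1.24 in WT runners and 6.01, 4.56, 3.296 and 2.28 in FLExDUX4 runners. FLExDUX4 mice averaged higher in both conditions, and the genotypes overlapped in both. The genotype difference averaged over running was 0.88 ± 0.43 (interval 0.00 to 1.75), with an unadjusted p of 0.0499 and an edgeR adjusted p of 0.998. It was 0.76 ± 0.65 in controls and 0.99 ± 0.57 in runners.

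S100a8 and S100a9 encode the partner chains of calprotectin, the main cytosolic protein of neutrophils, and lie near each other on chromosome 3. Averaged over genotype, they had the highest running differences of the 27 tested members, and neither was called. S100a8 read 2.10, 0.431 and 1.50 CPM in WT controls 1 to 3 and 0, 0 and 0.898 in FLExDUX4 controls 1 to 3. Runners read 7.11, 2.30, 0.405 and 1.24 CPM in WT mice 1 to 4 and 2.33, 4.83, 2.10 and 2.56 in FLExDUX4 mice 1 to 4. All 4 FLExDUX4 runners lay above all 3 FLExDUX4 controls, while WT runners ranged from below the lowest WT control to above the highest.

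The running difference of S100a8 was 2.86 ± 1.03 in FLExDUX4 mice (interval 0.78 to 4.94, unadjusted p = 0.00832, edgeR adjusted p = 0.601). It was 1.03 ± 0.91 in WT mice (interval -0.81 to 2.87), and the difference of the effects did not pass (1.83 ± 1.34, interval -0.89 to 4.55, edgeR adjusted p = 0.976). Averaged over genotype it was 1.94 ± 0.68 (interval 0.56 to 3.33, edgeR adjusted p = 0.17, the lowest adjusted p of any member in any of the 7 comparisons). The FLExDUX4 controls held 7 reads together, all in mouse 3. Without that mouse the fitted difference was 6.80 against controls at 0 reads, and this value depends on the small count that the fit adds.

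S100a9 read 2.52, 0 and 1.80 CPM in WT controls, 1.37, 0.249 and 2.95 in FLExDUX4 controls, 6.52, 2.30, 0.608 and 1.24 in WT runners and 4.85, 8.32, 1.50 and 2.28 in FLExDUX4 runners. The same mice, WT running 1 and FLExDUX4 running 2, were highest for both chains, and the groups overlapped for S100a9. Averaged over genotype the running difference was 1.13 ± 0.62 (interval -0.14 to 2.39, edgeR adjusted p = 0.486). Without WT running 1 it was 0.67, and that of S100a8 was 1.43.

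Other genes of neutrophils were at or near 0. Of 14 further markers, 8 had no read in any mouse: Ly6g, Mpo, Elane, Camp, Ngp, Ltf, Csf3r and Mmp8. The 14 together summed to 1.155 to 11.95 CPM per mouse, most of it from Mmp9, a protease that other cells make too. The summed level was highest in WT running 3, a mouse that had 2 reads of S100a8 and 3 of S100a9.

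**Figure D2:**
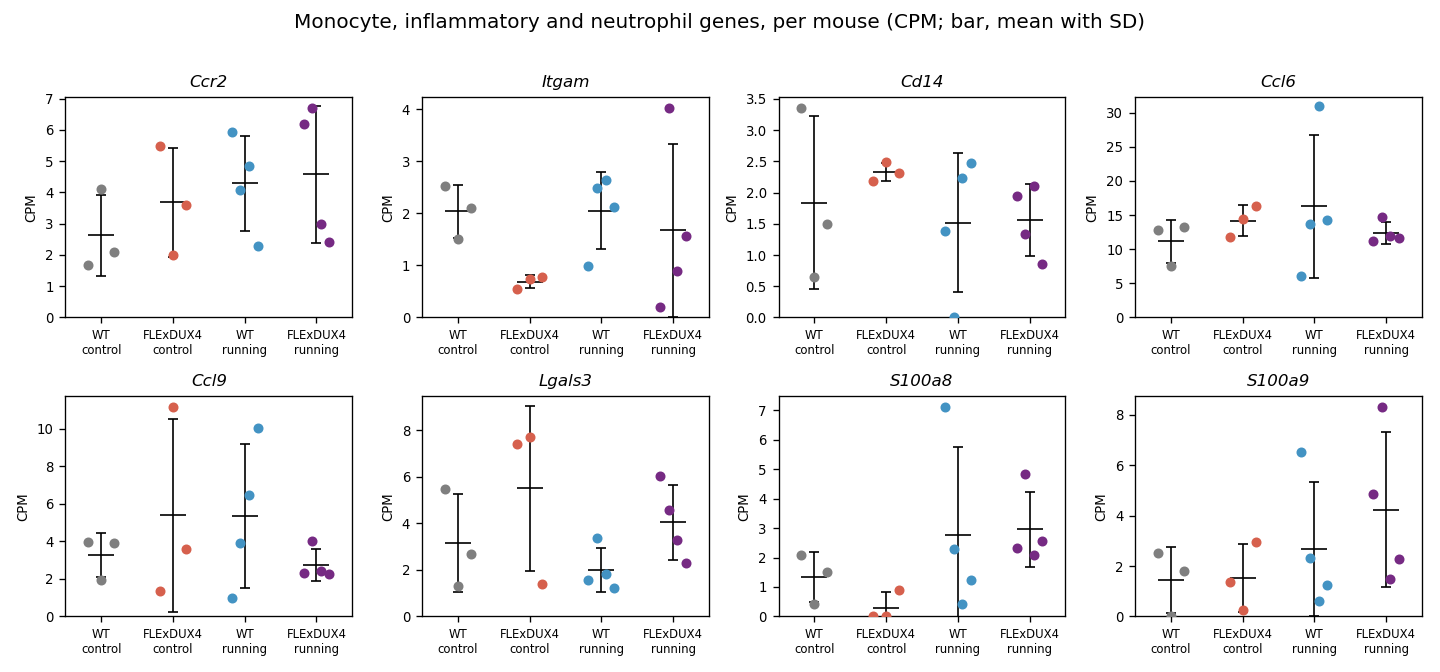
Levels of 8 monocyte, inflammatory, injury-associated and neutrophil members in each mouse. Each panel shows CPM on a linear axis from 0, 1 point per mouse, with the group mean and SD as a bar, in groups of 3 controls or 4 runners per genotype. S100a8 in FLExDUX4 mice is at 0 to 0.898 CPM in controls and 2.10 to 4.83 CPM in runners, and Itgam in FLExDUX4 controls lies below WT controls.

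The receptors and adaptors shared by leukocytes showed no difference past the test. Tyrobp and Fcer1g encode the signalling adaptors DAP12 and the Fc receptor gamma chain. Tyrobp averaged 4.17 CPM ± 2.39 in WT controls and 4.44 ± 2.56 in FLExDUX4 controls, against 4.30 ± 2.42 in WT runners and 3.38 ± 1.02 in FLExDUX4 runners. Fcer1g averaged 4.34 ± 0.305, 4.55 ± 1.604, 3.40 ± 1.64 and 3.51 ± 0.862 CPM in that order. Groups overlapped for both, with genotype differences in controls of 0.04 (interval -1.17 to 1.24) and 0.04 (-1.06 to 1.15).

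Fcgr3, a low-affinity receptor for immunoglobulin G, read 7.97, 1.94 and 4.20 CPM in WT controls and 0, 4.23 and 0.513 in FLExDUX4 controls. It averaged 2.83 ± 1.04 CPM in WT runners and 1.99 ± 1.43 in FLExDUX4 runners. FLExDUX4 control 2 sat inside the WT control range, and the difference of -1.61 ± 0.85 (interval -3.33 to 0.11) did not pass (edgeR adjusted p = 0.972). It was -3.79 without FLExDUX4 control 2 and -0.97 without WT control 1. Fcgr3 has close paralogs among the receptors of its family, and whether reads are shared with them is not known. Laptm5, a lysosomal membrane protein, the tetraspanin gene Cd53 and Cd52, a small surface glycoprotein, ranged over the mice from 1.41 to 8.46, 0.300 to 6.59 and 0.274 to 3.18 CPM.

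No member passed the test between genotypes in either condition. edgeR called 0 of the 27 tested members between genotypes in controls and 0 in runners, where it called 0 of all 11088 tested genes in each (0% for both). In controls, 13 of 27 members had a log2 difference above 0, against 50.3% of all genes, and their median was -0.04 against 0.00 for all genes. Single mice turned its sign, from -0.37 without FLExDUX4 control 2 to 0.23 without FLExDUX4 control 3. At an unadjusted p under 0.05 there was 1 member, Ctss, against 5% of all genes (2.81% higher and 2.18% lower). In runners 16 of 27 were above 0 (48.7% of all genes), the median was 0.05 against -0.01, and 0 members had an unadjusted p under 0.05 (3.16% of all genes, with 1.56% higher and 1.6% lower). The median in runners ran from -0.11 without FLExDUX4 running 2 to 0.24 without WT running 3. Groups of controls did not overlap for 2 members, Cd68 and Itgam, both lower in FLExDUX4 mice (5.47% of all genes, with 5.93% higher and 11.4% in either direction). Groups of runners did not overlap for 0 members (2.51% of all genes, 1.36% higher and 1.15% lower).

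Running also left no member past the threshold. In WT mice edgeR called 0 of 27 members against 0.496% of all genes (0.397% higher and 0.0992% lower). The median of the members was 0.11 against 0.01, with 17 above 0 (51.3% of all genes), and 1 had an unadjusted p under 0.05, Lyve1 (10.7%, with 6.3% higher and 4.37% lower). The median was -0.06, with 11 above 0, without WT running 3 and 0.41 without WT control 1. Cd68 was the member whose WT groups did not overlap, lower in runners (4.56%, with 5.74% higher and 10.3% in either direction). In FLExDUX4 mice 0 members and 0% of all genes were called. The median was 0.07 against 0.01, with 15 above 0 (51%), and S100a8 was the 1 member with an unadjusted p under 0.05 (6.64%, with 3.58% higher and 3.06% lower). The median was 0.50 without FLExDUX4 control 2 (24 of 30 tested members above 0) and -0.03 without FLExDUX4 control 3. C1qc and S100a8 were higher without overlap (3.72%), and Cd14 lower (3.45%, with 7.17% in either direction).

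Averaged over genotype, running gave 0 called members against 0.857% of all genes, with a median of 0.17 against 0.01. Without WT running 3 the median was -0.04, with 13 of 27 above 0, and without FLExDUX4 control 2 it was 0.36. S100a8 and Lyve1 had an unadjusted p under 0.05 (12%). Averaged over running, genotype gave 0 called members and 0% of all genes, with a median of -0.05 and Lgals3 at an unadjusted p under 0.05 (3.81%). That median ran from -0.30 without FLExDUX4 control 2 to 0.05 without WT running 3. The interaction gave 0 called members and 0% of all genes, and 0 members at an unadjusted p under 0.05 (4.85%, with 2.18% higher and 2.67% lower). Of all genes, 49.3% had an interaction above 0. With 0 calls, DESeq2 and limma-voom gave the same count of members in all 7 comparisons. A missed threshold does not show equal levels: for genotype in controls, the bound of the 95% interval that lay farther from 0 had a median size of 1.67 over the members, on the log2 scale.

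**Figure D3:**
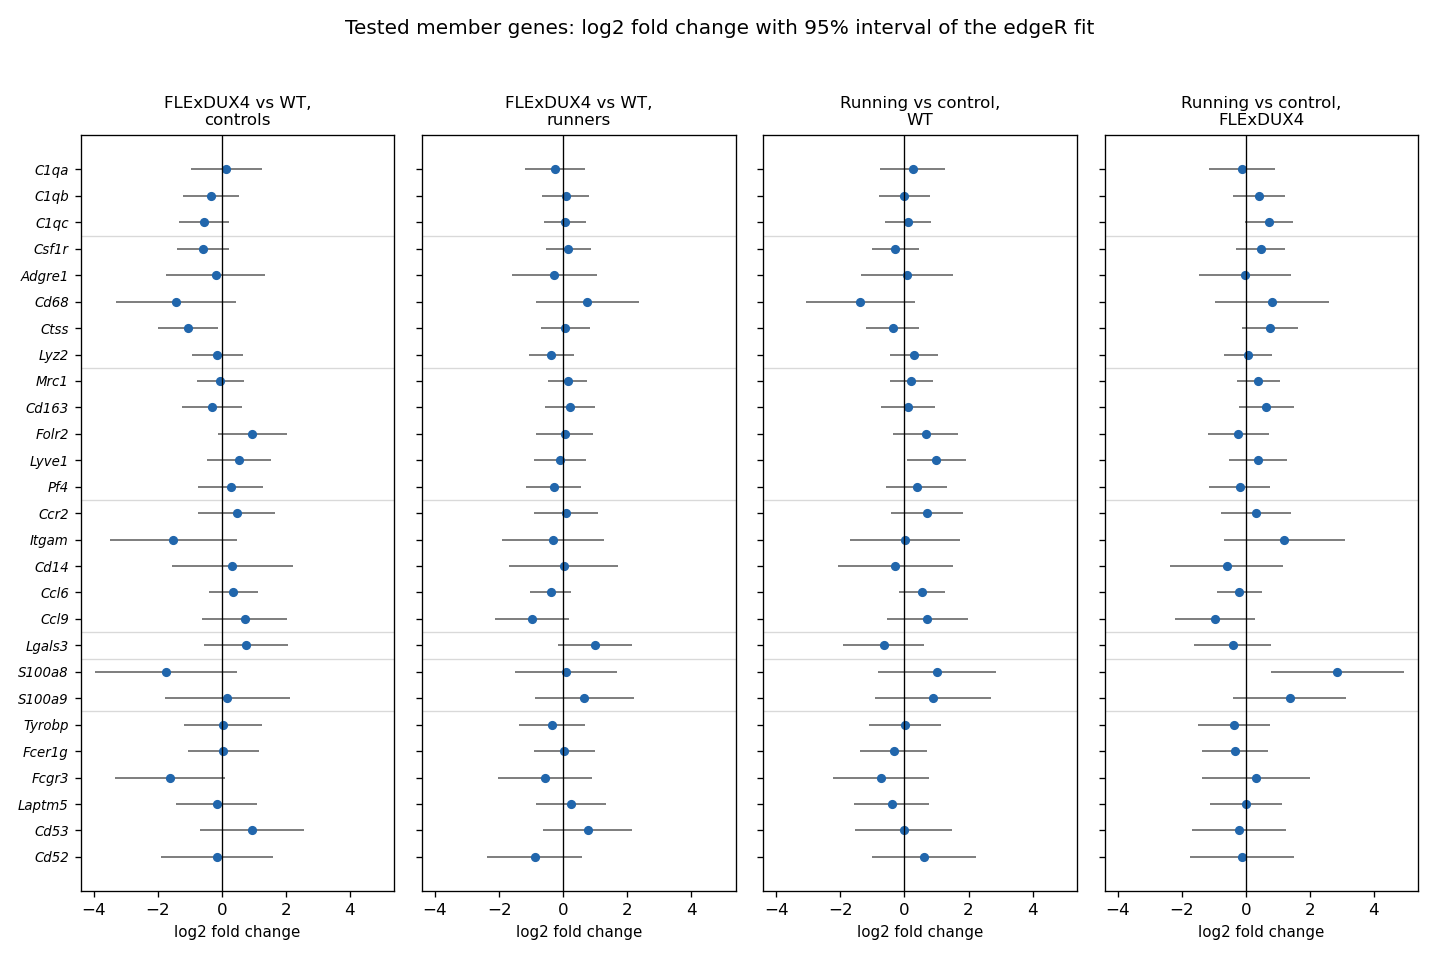
Log2 fold changes of the 27 tested members in the 4 pairwise comparisons. Points are edgeR estimates and lines their 95% intervals; positive values are higher in FLExDUX4 mice in the first 2 panels and higher in runners in the last 2, and grey lines part the roles. Intervals leave out 0 for Ctss between genotypes in controls (-1.98 to -0.13), Lyve1 with running in WT mice (0.07 to 1.93) and S100a8 with running in FLExDUX4 mice (0.78 to 4.94), and no member passed the adjusted threshold.

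Resident were compared with inflammatory markers by their summed levels per mouse. The 6 resident genes summed to 41.9 CPM ± 1.44 (n = 3) among WT controls and 49.4 ± 20.2 (n = 3) in FLExDUX4 controls, against 55.3 ± 24.3 (n = 4) in WT runners and 53.6 ± 12.5 (n = 4) in FLExDUX4 runners. The 5 monocyte and inflammatory genes summed to 20.96 ± 4.59, 26.3 ± 4.76, 29.5 ± 13.5 and 22.98 ± 5.41 CPM in that order. Both sums were highest in WT running 3, at 88.1 and 47.2 CPM.

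The log2 ratio of the resident to the inflammatory sum was 0.76, 1.38 and 0.93 in WT controls 1 to 3 and 1.07, 1.21 and 0.26 in FLExDUX4 controls 1 to 3. It was 1.42, 0.47, 0.90 and 0.91 in WT runners 1 to 4 and 1.23, 1.17, 0.95 and 1.53 in FLExDUX4 runners 1 to 4. The resident sum exceeded the inflammatory sum in all 14 mice. Group means were 1.02 ± 0.32 in WT controls and 0.85 ± 0.51 in FLExDUX4 controls, against 0.92 ± 0.39 in WT runners and 1.22 ± 0.24 in FLExDUX4 runners, and every pair of groups overlapped. Since the members were chosen with results of these mice known, no test was made of the ratio. Pf4 gave 36% of the resident sum and Ccl6 54.3% of the inflammatory sum. These sums give no count of cells of either class.

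**Figure D4:**
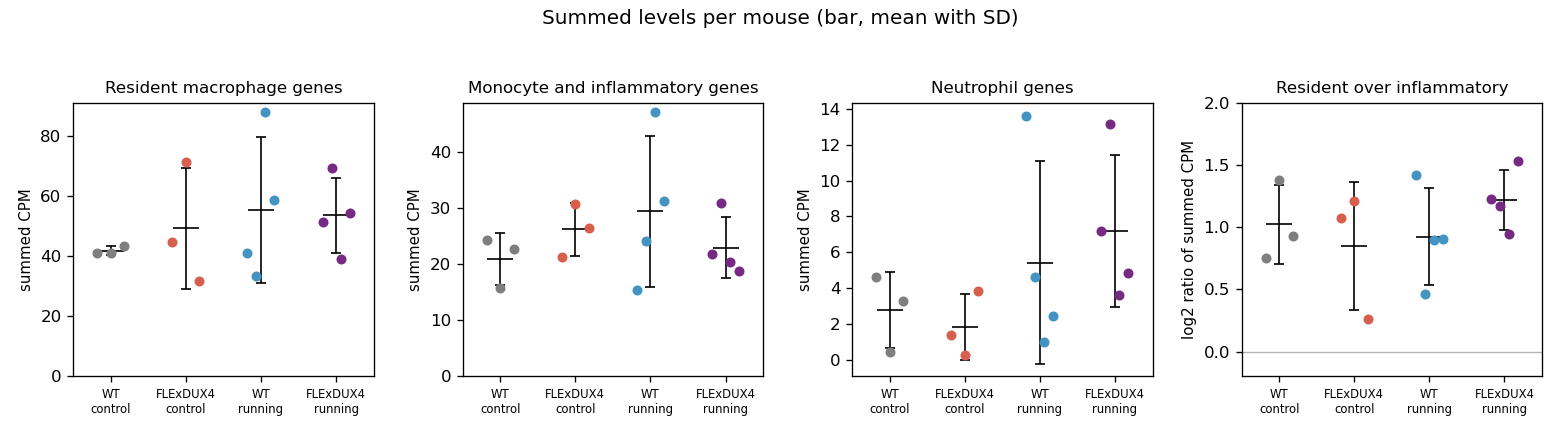
Summed CPM of the 6 resident, 5 monocyte and inflammatory and 2 neutrophil genes, and the log2 ratio of the first to the second sum, in each mouse. Points are mice and bars the group mean with SD (3 controls or 4 runners per genotype). The ratio is above 0 in all 14 mice and lies between 0.26 and 1.53, with overlap between all groups.

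Levels of the members varied widely between mice of the same group. The sum of all 33 members ran from 129 CPM in FLExDUX4 control 3 to 310 CPM in WT running 3. Within FLExDUX4 controls it ranged from 128.7 to 247.0 CPM, and within WT runners from 144.4 to 310.3 CPM. Its group means, which always range less widely than single mice, lay between 181.5 CPM in FLExDUX4 controls and 214.4 CPM in WT runners. WT running 3 was the highest mouse for 8 members, C1qb, Adgre1, Lyz2, Mrc1, Lyve1, Pf4, Ccl6 and Tyrobp, and lay above the median of the 14 mice for 20 of the 23 members counted in every mouse. FLExDUX4 control 2 lay above it for 18 of 23 and FLExDUX4 running 2 for 17. FLExDUX4 control 3 and WT running 1 lay above it for 4 of 23. High and low mice thus occurred within the same group, as in FLExDUX4 controls and WT runners. The neutrophil pair went with other mice: its sum was 13.6 CPM in WT running 1, 13.2 in FLExDUX4 running 2 and 1.01 in WT running 3.

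**Figure D5:**
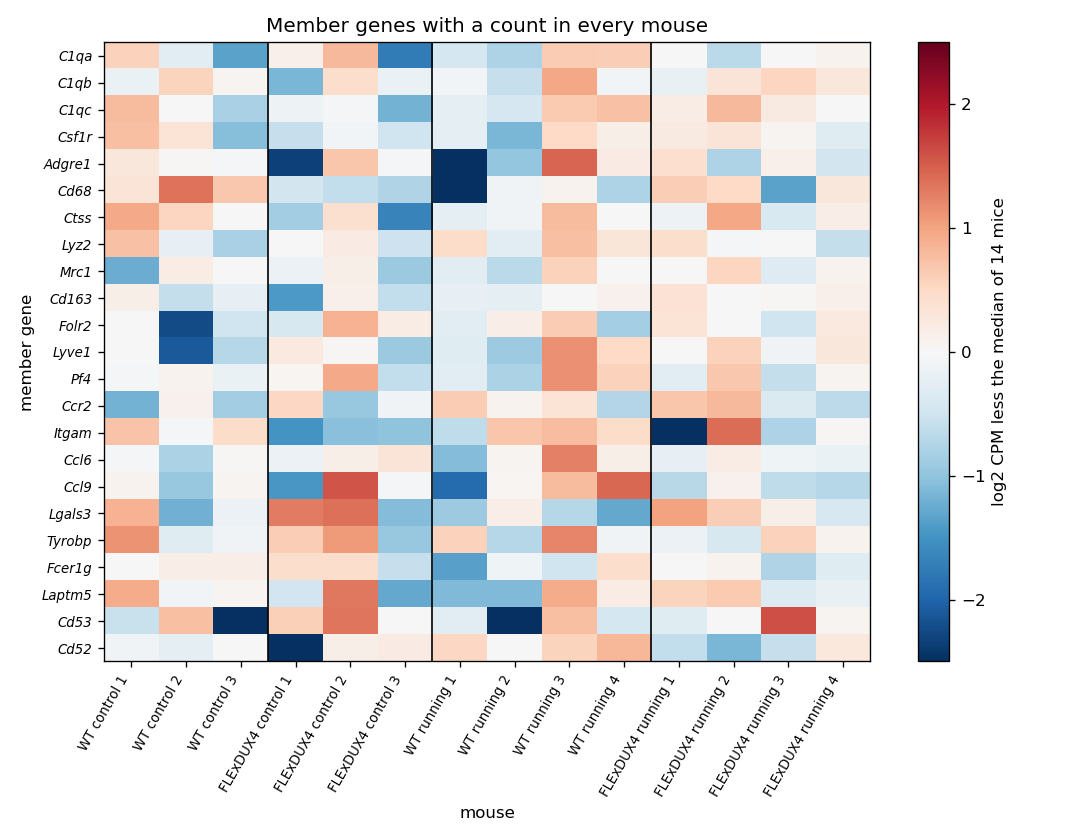
Level of each of the 23 members counted in all 14 mice, as log2 CPM less the median over the mice. Rows are genes, columns mice, and black lines part WT controls, FLExDUX4 controls, WT runners and FLExDUX4 runners; the colour scale ends at 2.5 in each direction. WT running 3 is above the median for 20 of 23 genes and FLExDUX4 control 3 for 4 of 23.

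No gene of 4 other lists of the myeloid programme passed the test. Of 56 further macrophage and monocyte genes, 27 were tested and 0 were called in any of the 7 comparisons. This list is dominated by Maf, a transcription factor that takes 68.7% of its summed level and that cells other than macrophages also make. Of 20 cytokines and chemokines, 5 were tested and 0 called, and Tnf, Il10, Ccl5 and Osm had no read in any mouse. Of 8 growth factors and attractants, 6 were tested and 0 called, and Csf2 and Csf3 had no read. Csf1, the ligand of the Csf1r receptor, averaged 7.51 CPM ± 2.34 in WT controls and 7.95 ± 1.12 in FLExDUX4 controls, against 5.95 ± 1.29 in WT runners and 7.36 ± 1.08 in FLExDUX4 runners. Of 7 class II antigen presentation genes 6 were tested and 0 called, with H2-Aa at 25.2 ± 2.38, 21.1 ± 13.9, 31.8 ± 10.5 and 27.9 ± 4.91 CPM in the same order.

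Among the lists of other leukocytes, the 7 B cell genes summed to 44.6 to 130.6 CPM per mouse, with 98.2% of that level from Ighm, the heavy chain of immunoglobulin M. The T cell list summed to at most 2.13 CPM in any mouse, with Cd3g, Cd4 and Cd8a at 0 in all, and the NK cell list to at most 1.155 CPM, with Klrb1c and Gzma at 0. The 7 mast cell genes summed to 3.54 to 12.6 CPM and the 7 dendritic cell genes to 2.66 to 10.5 CPM. Among the markers of cells other than leukocytes, 2 genes were called, both with running in WT mice (0.496% of all genes). They were 1 of 9 tested genes of blood endothelium and 1 of 7 of smooth muscle and pericytes. Of all tested genes, this comparison called 0 without WT control 1 and 2 without WT running 4. Kdr, which encodes the endothelial VEGF receptor FLK1, averaged 24.8 CPM ± 1.33 in WT controls and 57.3 ± 24.3 in WT runners (log2 difference 1.21 ± 0.26, edgeR adjusted p = 0.0409). Rgs5, a gene of pericytes, averaged 136 CPM ± 20.4 and 217 ± 22.7 in these groups (0.68 ± 0.16, edgeR adjusted p = 0.0431).

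The authors' deposited table also gave no call for any member at an adjusted p under 0.05. It lists an adjusted p for 33 members in each comparison of genotypes, 2 with running in WT mice and 17 with running in FLExDUX4 mice. Of all genes with an adjusted p, it called 299 of 3021 with running in WT mice and 4 of 7532 with running in FLExDUX4 mice. In each comparison of genotypes it called 1 of 22687. It holds their own fold changes and p-values, made with DESeq2 per the submitters' processing notes, for the 4 pairwise comparisons used here. At an unadjusted p under 0.05, the authors' deposited table had Ctss and Spp1 between genotypes in controls and Cd68 and Spp1 with running in WT mice. In the other pair of comparisons it had 0 members.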

How the data were processed

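The authors deposited 1 table with raw read counts per gene and mouse, without normalization, and with their log2 fold changes and p-values per comparison. Per the submitters' processing notes, cutadapt 1.16, FastQC 0.11.7, STAR 2.5.3a, featureCounts 1.6.2 and DESeq2 were used, and GRCm38 and GRCh38 are named as builds. Not given in the sources used here are the gene annotation, the strandedness of counting and the treatment of multi-mapping reads. Libraries were made with a QuantSeq 3′ FWD kit, per the labels' protocols.

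From the counts of 14 mice, 92 ERCC and 7 SIRV spike-ins were set aside. A second identifier of Itgam had 0 counts in all mice. edgeR 4.0.16 in R 4.3.3 used TMM factors, filterByExpr with a minimum count of 10 (11088 genes kept), 1 robust quasi-likelihood fit of 4 group means and Benjamini-Hochberg adjustment over all tested genes at 0.05. CPM used the TMM-scaled library sizes. The 7 comparisons were genotype in controls and in runners, running in each genotype, the interaction, and both averages. Replicate numbers follow the order of the sample records. Each library came from 1 mouse per the design text. Intervals rest on the fitted spread between mice, while floors cover the sampling of reads alone. Both are from reads counted without molecular identifiers.

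The members and the 19 other lists were chosen with earlier results of these data known. All 33 members were named. Of other lists, a gene was named where it was called, and otherwise up to 3 genes of highest mean CPM. Spi1, Lyz1 and genes with 0 reads are named outside this rule, after their values were seen. Coordinates are from GENCODE M21 on GRCm38, and promoter windows from RefSeq on GRCm38.p6. Alternatives were DESeq2 1.42.0, limma-voom (limma 3.58.1), RLE, upper quartile and spike-in scaling, other filters, and mice left out.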

Additional observations from a re-analysis of the deposited data

Results flagged for a closer look

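In 84 groups of 4 mice (each member, each summed role group, the sum of all members and the ratio, in either group of runners), 8 values stood apart from the other 3 mice of their group. For normally distributed values chance gives about 1 in 20 groups. A gene with reads in 1 of 4 mice always stands apart by this rule, so that rate does not hold for genes near 0. Of the 8 values, all but that of Spp1 in WT running 4 came from FLExDUX4 runners. In FLExDUX4 running 2, C1qa was at 5.64 CPM with the nearest mouse at 8.99. In the same mouse Ccl9 was at 4.03 CPM (nearest 2.4), Spp1 at 1.07 (nearest 0.3) and S100a8 at 4.83 (nearest 2.56). In FLExDUX4 running 1, Cx3cr1 was at 1.36 CPM (nearest 0.142) and Trem2 at 0.969 with the others at 0. Cd53 was at 6.59 CPM in FLExDUX4 running 3 (nearest 2.27). Spp1 was at 0.353 CPM in WT running 4, from 2 reads, with the others at 0.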

How the results depend on the processing

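The count of called members was 0 in all 7 comparisons under each alternative that was run, which were other library scalings, filters, tests, thresholds and samples. Over all tested genes, calls with running in WT mice went from 55 to 0 without WT control 1, 2 without WT running 4, 198 without WT running 3, 604 with spike-in library sizes, 23 with limma-voom and 196 with DESeq2. Averaged over genotype they went from 95 to between 17 (without FLExDUX4 control 1) and 430 (spike-in sizes). For genotype in controls, 23 genes were called with only the 2 groups in the fit. Spike-in sizes moved the median of all genes to 0.31 for genotype in controls and to 0.37 for running in WT mice, and that of the members to 0.28 and 0.48. In each of the 7 comparisons leaving out a mouse turned the sign of the members' median, which for the interaction was 0.00 and ran from -0.18 (without WT running 1) to 0.22 (without FLExDUX4 control 2). With spike-in library sizes, the edgeR adjusted p of S100a8 was 0.0563 with running averaged over genotype. That of Lyve1 with running in WT mice was 0.0691, and both were the lowest under any alternative. Of 248 summed levels and ratios under alternatives, 5 moved by more than 1 SD. Leaving out 1 mouse of a group cannot move the group's mean by 1 SD. Only changes of scaling or of gene lists could therefore be among the 5. With spike-in sizes the resident sum in WT controls was 34.8 CPM, and the cause was not tested. An alternative without Pf4 and Ccl6 was chosen after seeing the data. Its log2 ratio was 1.42 for WT controls, 1.38 for WT runners and 1.86 for FLExDUX4 runners. FLExDUX4 controls moved by less than 1 SD, to 1.30 (1.05 to 1.56), and overlapped with FLExDUX4 runners (1.44 to 2.395). With both neutrophil genes added to the inflammatory list, also chosen after seeing the data, the ratio was 0.85 in FLExDUX4 runners. It was 0.86 in WT controls, 0.75 in FLExDUX4 controls and 0.60 in WT runners, which moved by less than 1 SD. No paired analysis was possible because the labels pair no mice across groups. Depth limits every member with few reads: 3 counts are 0.429 to 0.918 CPM per library before TMM scaling.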

Other observations

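Ighm, which gave nearly all of the summed level of the B cell genes, averaged 97.1 CPM ± 23.3 (n = 3) in WT controls, 75.0 ± 7.27 (n = 3) in FLExDUX4 controls, 87.1 ± 29.1 (n = 4) in WT runners and 78.9 ± 28.5 (n = 4) in FLExDUX4 runners.

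Read counts explain part of the spread of the members. For Lyz2 the coefficient of variation over the 14 mice was 32.7%, against 7.13% expected from counting alone at its mean of 197 reads. For Cd68 it was 59.2% against 36.2% at 7.64 reads, and for Trem2 212% against 78.0%.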
